A study of Mus musculus with 4 samples.

Results

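Id1, Id2 and Id3 (inhibitors of DNA binding) and the inhibitory Smads Smad6 and Smad7 were followed as 5 named genes among 27998 genes counted in single cells of a mouse model of breast cancer. The 5 genes were chosen by name, with earlier results of these data known. The mice were of the FvB strain and carried MMTV-HER2/Neu, a Neu oncogene (HER2, Erbb2) driven by the mouse mammary tumor virus promoter, which is active mainly in mammary epithelium; all 4 groups share this transgene, and no mice without it are part of the comparison. Late lung cells came from lungs of mice over 20 weeks old that bore primary tumors, and early lung cells from lungs of mice of 14 to 18 weeks with no palpable tumor. Primary tumor cells came from breast tumors of mice over 20 weeks old, and early lesion cells from mammary glands of mice of 14 to 18 weeks with no palpable tumor. Cells without CD45 and with HER2 at the surface were sorted and barcoded in droplets, and transcripts were counted as unique molecular identifiers (UMIs) at their 3′ ends. The labels call all 4 groups breast cancer cells. They give 1 library per group and do not say how many mice went into it, so no difference between groups could be tested against replicates; all intervals are exact 95% intervals that cover counting error only.

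On mm10, Id1 (ENSMUSG00000042745) lies on the plus strand of chromosome 2 from 152736251 to 152737410, Id2 (ENSMUSG00000020644) on the minus strand of chromosome 12 from 25093799 to 25097140, and Id3 (ENSMUSG00000007872) on the plus strand of chromosome 4 from 136143497 to 136145755. Smad6 (ENSMUSG00000036867) lies on the minus strand of chromosome 9 from 63953076 to 64022059, and Smad7 (ENSMUSG00000025880) on the plus strand of chromosome 18 from 75367529 to 75395935.

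Bone morphogenetic proteins (BMPs) and TGF-beta bind paired receptors that phosphorylate signal Smads, which enter the nucleus with Smad4 and switch on target genes. The Id genes are direct targets of BMP signaling in many cells. Id proteins pair with E proteins and other helix-loop-helix factors but lack a DNA-binding region, so the pair cannot bind DNA. Smad6 and Smad7 are themselves targets of the pathway and act back on it, Smad6 mainly on BMP signals and Smad7 on both branches. In blood vessel endothelium, BMP signals through the receptors Acvrl1 and Bmpr2 and the co-receptor endoglin keep the Id genes and Smad6 on. In mammary epithelium, Id2 is known for its part in the growth and differentiation of the gland in pregnancy.

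Promoter windows of 300 bases around the gene start were matched for 3 of the 5 genes, Id2, Id3 and Smad6, in RefSeq on GRCm38.p6. The stretches below are shown because they set Id2, which was low in the lungs, beside Id3 and Smad6, which were high there. The Id2 stretch and both Id3 stretches shown lie inside the extents of the genes given above, downstream of their outer ends, so the windows of these genes are not only upstream sequence. Capitals mark matches to 4 motifs searched on both strands: GGCGCC and GCCGNC, GC-rich elements bound by BMP-activated Smads, and CAGAC and the palindrome GTCTAGAC, elements bound by Smad3 and Smad4. Not all matches are printed: GCCGNC also matched at position -22 from the start in Id3 and at -239 in Smad6, outside the stretches shown.
Id2 window, chr12:25096254-25096342, minus strand: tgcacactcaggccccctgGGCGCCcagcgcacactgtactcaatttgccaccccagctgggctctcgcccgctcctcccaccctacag
Id3 first site, chr4:136143643-136143672, plus strand: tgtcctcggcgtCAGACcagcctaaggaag
Id3 second site, chr4:136143742-136143771, plus strand: ggacccttggcgGTCTGttttgaataaggg
Smad6 window, chr9:64022056-64022159, minus strand: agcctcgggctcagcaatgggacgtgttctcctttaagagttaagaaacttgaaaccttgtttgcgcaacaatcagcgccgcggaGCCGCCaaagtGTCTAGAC
The Smad6 palindrome began 4 bases before the annotated start and ran across it. It was found in 0.213% of the 32851 RefSeq windows of the same length, whereas GGCGCC, held by the Id2 stretch, was found in 11.9%, GCCGNC in 33.2% and CAGAC in 49.6%. Motifs may overlap one another, and a match describes these letters and is not evidence of binding.

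Barcodes with at least 500 UMIs, at least 250 genes and at most 20% mitochondrial UMIs were taken as cells, which left 210 late lung, 185 early lung, 434 primary tumor and 1318 early lesion cells with 412032, 203676, 1825842 and 3926447 UMIs. The median cell held 811, 772, 1658 and 2360 UMIs in that order. No cell barcode was shared between libraries, and possible doublets were kept. A few very deep cells weigh heavily in 2 libraries: 8 cells over 10000 UMIs held 42.2% of the cell UMIs of late lung and 18 held 54.5% of those of primary tumor, against 5.60% in early lung and 6.50% in early lesion. The markers went against the common label of the lung cells. A list of 7 mammary luminal genes summed to 2148 CPM (counts divided by the cell UMIs of the library and scaled to 1e6) in late lung and 1095 CPM in early lung, against 56140 CPM in primary tumor and 25903 CPM in early lesion. Endothelial genes, all 8 of the list detected in both lungs, summed to 7456 CPM in late lung and 4404 CPM in early lung, against 48.2 CPM in primary tumor, where Cldn5, Cdh5, Ramp2, Egfl7 and Esam were at 0, and 127 CPM in early lesion. Other lung lists were higher still. Airway secretory genes summed to 85144 CPM in late and 114280 CPM in early lung. Alveolar type 1 genes summed to 8786 and 12751 CPM there, against 3511 CPM in primary tumor and 50.2 CPM in early lesion.

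Id1, Id3, Smad6 and Smad7 were lung genes in these libraries, and Id2 was a mammary gene. Id1 stood at 335 CPM (281 to 396) in late lung and 157 CPM (107 to 222) in early lung, against 0.548 CPM (1 UMI) in primary tumor and 1.78 CPM (7 UMIs) in early lesion. Late lung was highest and early lung next, while the intervals of the mammary libraries overlapped. Id3 stood at 582 CPM (511 to 661) in late lung and 447 CPM (360 to 549) in early lung, against 0.548 CPM in primary tumor, again 1 UMI, and 4.33 CPM (17 UMIs) in early lesion. Its lung intervals overlapped between 511 and 549 CPM, and its mammary intervals overlapped too.

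Id2 had the reverse order, with 77.7 CPM (53.1 to 110) in late lung and 29.5 CPM (10.8 to 64.1) in early lung, against 881 CPM (838 to 925) in primary tumor and 639 CPM (614 to 665) in early lesion. Primary tumor was highest, early lesion second, and the lung intervals overlapped. Of all UMIs of the 3 Id genes, Id2 made up 32 of 410 in late lung and 6 of 129 in early lung, against 1608 of 1610 in primary tumor and 2509 of 2533 in early lesion. Summed, the 3 genes were nevertheless close, at 995 CPM (901 to 1096) in late lung and 633 CPM (529 to 753) in early lung, against 882 CPM (839 to 926) in primary tumor and 645 CPM (620 to 671) in early lesion.

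Smad6, the inhibitor most closely tied to BMP signals, stood at 342 CPM (288 to 404) in late lung and 118 CPM (75.5 to 175) in early lung. In primary tumor it had no UMI in 434 cells, which allows a share of up to 0.691% of cells with a UMI and a level of up to 1.64 CPM (3 UMIs; the exact 95% upper limits are 0.846% and 2.02 CPM), and in early lesion it had 3 UMIs (0.764 CPM). Smad7, which also recruits ubiquitin ligases to the receptors, stood at 148 CPM (113 to 190) in late lung and 34.4 CPM (13.8 to 70.8) in early lung, against 8.76 CPM (5.01 to 14.2) in primary tumor and 3.06 CPM (1.58 to 5.34) in early lesion. Smad7 was thus the one of these 4 lung genes with a measurable level in primary tumor, and its intervals in early lung and primary tumor overlapped narrowly, between 13.8 and 14.2 CPM.

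**Figure D1:**
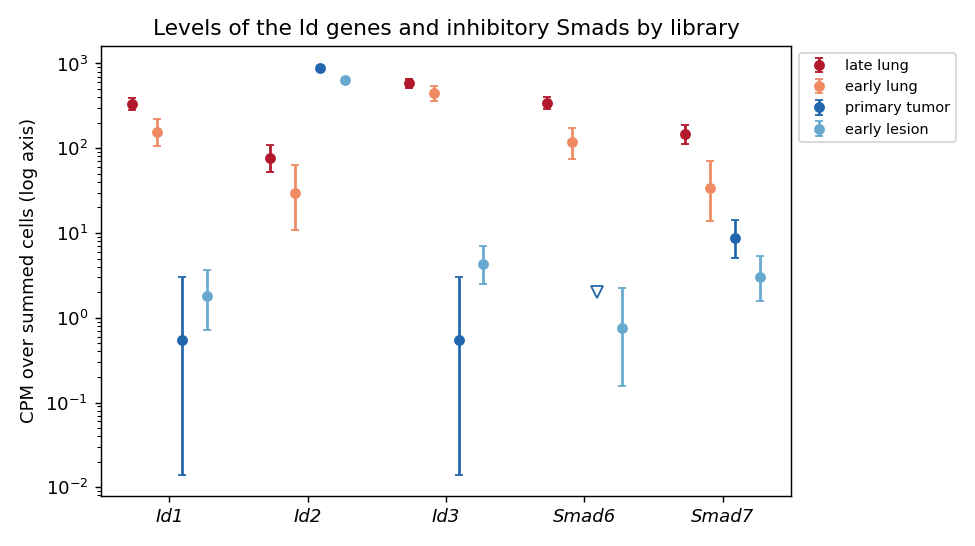
CPM of each gene (log axis) over the summed cells of late lung, early lung, primary tumor and early lesion, left to right; bars are exact 95% counting intervals, and the open triangle is the upper limit for Smad6 in primary tumor, which had no UMI. Id1, Id3, Smad6 and Smad7 sit higher in the lungs and Id2 higher in the mammary libraries.

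The share of cells with a UMI showed the same split after every cell was thinned to 500 UMIs. Id2 was detected in 2.38% of late lung cells and 1.62% of early lung cells, against 33.2% of primary tumor cells and 24.6% of early lesion cells. Without thinning the shares were 7.14% and 2.70% in the lungs and 65.4% and 63.4% in the mammary libraries. Id3 was detected in 12.4% of late lung and 14.6% of early lung cells after thinning, against 0.230% of primary tumor and 0.303% of early lesion cells; the unthinned shares were 23.3%, 22.7%, 0.230% and 0.910% in that order. Thinned shares of Id1 were 9.05% in late lung and 5.41% in early lung, and those of Smad6 5.24% and 4.86%; the intervals of each lung pair overlapped. Unthinned, Id1 was in 14.8% and Smad6 in 10.5% of late lung cells, and both were in 9.73% of early lung cells. Smad7 reached 1.90% and 1.62% in the thinned lungs, 4 and 3 cells, too few to order. The shares of the lung genes therefore differed less between late and early lung than their CPM.

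Free RNA can place UMIs in cells that do not make a transcript, and barcodes with 1 to 50 UMIs show what it holds. In those barcodes Id1 stood at 282 CPM in late lung and 163 CPM in early lung, Id3 at 361 and 316 CPM, and Smad6 at 94.1 and 29.9 CPM. Over all cells Id1 was near its free RNA level, while Id3 and Smad6 were higher in cells. Without cells over 10000 UMIs, the late lung cells held Id1 at 185 CPM, below free RNA, Id3 at 361 CPM, equal to it, and Smad6 at 139 CPM, above it. Id2 in free RNA stood at 783 CPM in primary tumor and 689 CPM in early lesion, close to its levels in the cells. The next comparison, between groups of cells within each lung, sets Id1, Id3 and Smad6 beside free RNA. It does not bear on Id2 in the mammary libraries.

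Lung cells were split by UMIs of Cldn5, a tight junction protein of endothelium, Ager, a receptor abundant on alveolar type 1 cells, and Cox4i2, a respiratory chain subunit enriched in lung pericytes and smooth muscle; a cell belonged to a group if it held at least 1 UMI of that marker and none of the other 2. Id1, Id3 and Smad6 were several-fold higher in Cldn5 cells than in Ager cells in both lungs. Late lung had 23 Cldn5, 98 Ager and 16 Cox4i2 cells, with median depths of 707, 863 and 830 UMIs, and early lung 30, 69 and 16. The groups differed in the gene lists of their markers but also in others. Without the marker itself, the endothelial list summed to 8456 CPM in late and 9662 CPM in early lung Cldn5 cells, against 492 and 845 CPM in Ager cells. The alveolar type 1 list summed to 1246 and 1158 CPM in Cldn5 cells, against 12423 and 17315 CPM in Ager cells, and the pericyte and smooth muscle list to 3350 and 6017 CPM in Cox4i2 cells. The luminal list summed to 2611 CPM in late lung Cldn5 cells (88 UMIs) and 36.2 CPM in those of early lung (1 UMI), and to 4899 and 2470 CPM in Ager cells. A list of airway secretory genes summed to 4154 CPM in late and 5356 CPM in early lung Cldn5 cells, against 210065 and 108113 CPM in Ager cells. Blood genes summed to 237 and 72.4 CPM in Cldn5 cells, against 34130 and 462 CPM in Ager cells, with Ptprc, Cd3e and Cd79a at 0 in the Ager cells of late lung. The Ager groups are therefore cells with an Ager UMI and not a pure cell type, and the part of these other genes in the ratios was not tested.

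Id1 stood at 356 CPM in Cldn5 cells of late lung (12 UMIs) and 37.3 CPM in its Ager cells (5 UMIs), a log2 ratio of 3.18 (1.65 to 5.11). In early lung Id1 stood at 434 CPM in Cldn5 cells and 39.6 CPM in Ager cells, a log2 ratio of 3.29 (1.56 to 5.92). The intervals of the levels did not overlap in either lung. Had the Ager cells of late lung been filled from free RNA at its own composition, 37.9 UMIs of Id1 would have fallen in them, not 5, 48.4 UMIs of Id3, not 24, and 12.6 of Smad6, not 4. The same reckoning gives the Cldn5 cells of late lung 9.52 UMIs of Id1 against 12 observed, 12.2 of Id3 against 31 and 3.17 of Smad6 against 20. For those of early lung it gives 4.49 UMIs of Id1 against 12 observed, 8.75 of Id3 against 28 and 0.827 of Smad6 against 12. This reckoning takes every UMI of a cell as free RNA, so its figures are upper limits for what free RNA would place. Id1 in late lung Cldn5 cells was near that limit, and the part of free RNA in it was not tested.

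Id3 stood at 920 CPM in Cldn5 cells of late lung (31 UMIs) and 179 CPM in its Ager cells (24 UMIs), a log2 ratio of 2.36 (1.55 to 3.19). In early lung it stood at 1013 CPM in Cldn5 cells (28 UMIs) and 145 CPM in Ager cells (11 UMIs), a log2 ratio of 2.76 (1.75 to 3.96). Cldn5 cells were thus the higher group for Id3 in both libraries. Smad6 stood at 593 CPM in Cldn5 cells of late lung (20 UMIs) and 29.8 CPM in its Ager cells (4 UMIs), a log2 ratio of 4.18 (2.74 to 6.32), but 14 of the 20 UMIs came from the 1 Cldn5 cell over 10000 UMIs. Without deep cells Smad6 stood at 288 CPM in Cldn5 cells and 33.5 CPM in Ager cells, a log2 ratio of 3.05 (1.03 to 5.37), and the ratios of Id1 and Id3 were 3.15 (1.40 to 5.16) and 1.82 (0.73 to 2.82). In early lung Smad6 had 12 UMIs in Cldn5 cells (434 CPM) and 1 UMI in Ager cells (13.2 CPM), a log2 ratio of 4.51 (2.28 to 10.46). Shares of cells with a UMI ran the same way: Smad6 was in 30.4% of Cldn5 cells and 3.06% of Ager cells of late lung, whose median depths were 707 and 863 UMIs.

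Smad7 was too rare in these groups for a ratio, with 3 UMIs in Cldn5 cells of each lung against 1 UMI in Ager cells of late lung and 0 in those of early lung. Id2 had no stable order: 2 UMIs in Cldn5 cells and 13 in Ager cells of late lung, and 4 and 1 in early lung. Of the 13 Id2 UMIs in late lung Ager cells, 10 came from 1 cell, the late lung cell richest in mammary luminal markers. That cell held 6308 UMIs, of which 403 were from the luminal list and 22 from the alveolar type 1 list. It was in the Ager group through 1 Ager UMI. Its Id2 level was 1585 CPM and it had no UMI of Id1, Id3, Smad6 or Smad7, the order of the 5 genes seen in the mammary libraries. In early lung the cell richest in luminal markers had 31 such UMIs among 4725 in all, 114 of the alveolar type 1 list, 2 UMIs of Id3 and none of Id2.

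Cox4i2 cells were few and gave sparse counts. In late lung they held 4 UMIs of Id1, 3 of Id2 and 4 of Id3, and in early lung 1 UMI of Id3, with no UMI of Smad6 or Smad7 in either. Against this, counting 3 UMIs for the Cox4i2 group, Smad6 in Cldn5 cells was 2.95-fold higher in late lung and 1.64-fold higher in early lung. The lower ends of the exact log2 intervals were 1.13 and 0.18. Without the deep cell the late lung value was 1.43-fold, on 6 against 0 UMIs. Its lower end was then -0.24, so no difference lies within that interval. Cells with no UMI of the 3 markers, 43 in late lung and 52 in early lung, were intermediate for Id3 at 350 and 410 CPM, and held Id1 at 397 and 137 CPM. Id1 in late lung was thus not particular to Cldn5 cells. It stood at 397 CPM (231 to 635) in cells without the markers, 356 CPM (184 to 622) in Cldn5 cells and 268 CPM (73.0 to 686) in Cox4i2 cells. These intervals overlapped, and the 4 UMIs of the Cox4i2 group came from 1 cell.

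**Figure D2:**
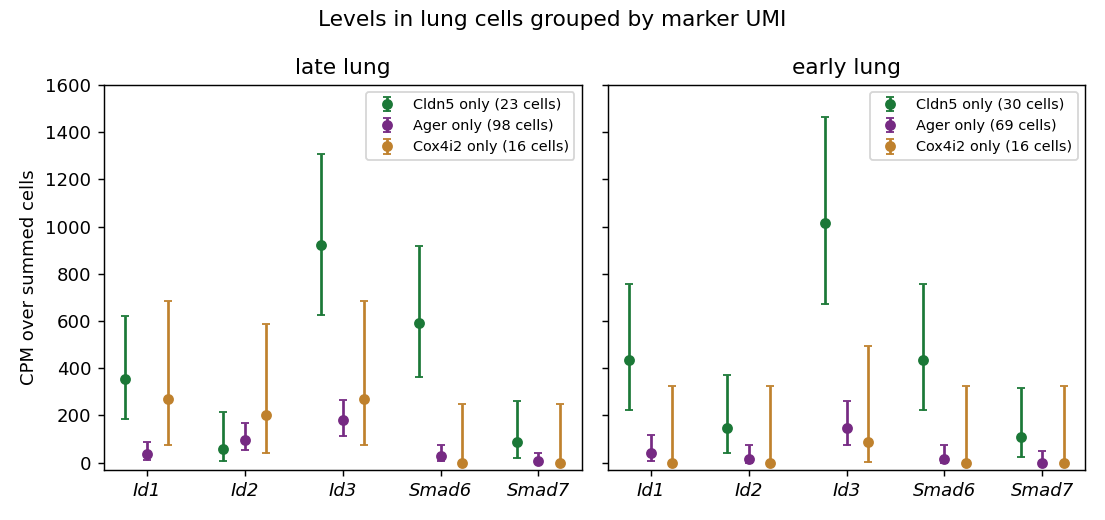
CPM over summed cells of the Cldn5, Ager and Cox4i2 groups, left to right for each gene, in late lung (left) and early lung (right); bars are exact 95% counting intervals. Id1, Id3 and Smad6 are higher in Cldn5 cells than in Ager cells in both lungs, and Id3 in Cldn5 cells reaches 920 CPM in late lung and 1013 CPM in early lung.

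Late lung was set against early lung to ask how the genes differ with stage at the distant site. By summed cells, 4 of the 5 genes were at least 2-fold higher in late lung, where 12.6% of the 4552 genes with at least 20 UMIs over both libraries were. Smad7 was 4.05-fold higher (61 against 7 UMIs, log2 ratio 2.02, 0.98 to 3.48) and Smad6 2.85-fold higher (141 against 24 UMIs, log2 ratio 1.51, 0.91 to 2.23). Id2 had a log2 ratio of 1.31 (0.12 to 2.95) from 32 against 6 UMIs, Id1 one of 1.07 (0.53 to 1.69), and Id3 one of 0.38 (0.03 to 0.75), under 2-fold. Of the 32 Id2 UMIs, 10 lay in the late lung cell richest in luminal markers. The median log2 ratio over all genes tested was 0.05.

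Most of this difference sat in a handful of very deep cells. Without cells over 10000 UMIs, 1 of the 5 genes was at least 2-fold higher in late lung, where 6.02% of 3192 genes were. Id1 then had a log2 ratio of 0.49 (-0.23 to 1.28), Id3 one of -0.31 (-0.76 to 0.14), Smad6 one of 0.20 (-0.60 to 1.05) and Smad7 one of 0.54 (-0.85 to 2.15). All 4 intervals then included 0, and the order of the lungs turned round for Id3. Id2, the 1 gene still past 2-fold, had a log2 ratio of 1.55 (0.29 to 3.22) from 23 against 6 UMIs. Of the 23, 10 came from the luminal-rich cell, so this ratio leans on 1 cell.

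**Figure D3:**
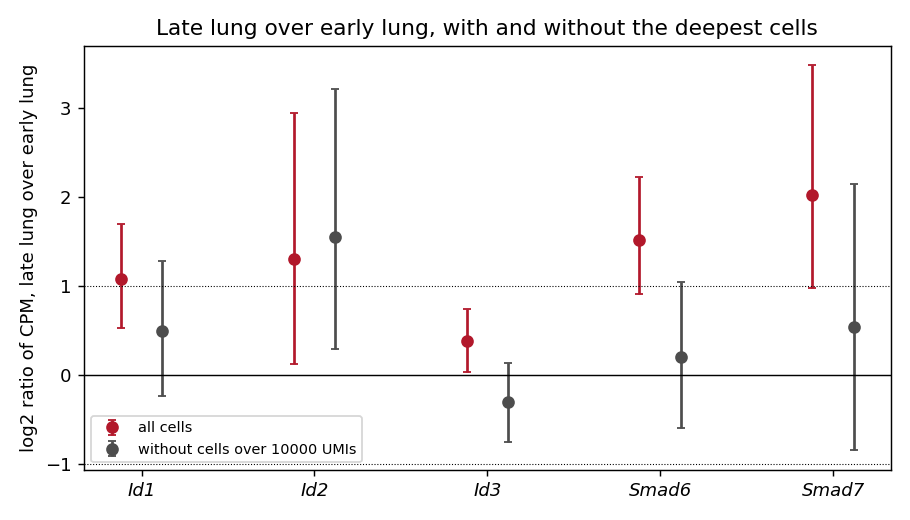
Log2 ratio of CPM, late lung over early lung, for each gene with all cells (left point) and without cells over 10000 UMIs (right point); bars are exact 95% counting intervals and dotted lines mark 2-fold. Smad6 lies at 1.51 with all cells and 0.20 without the deepest, and Smad7 at 2.02 and 0.54.

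Of the 8 deep cells in late lung, 6 were rich in Cldn5, with 46 to 131 UMIs of it and 165 to 495 UMIs of the endothelial list. These 6 cells held 36.0% of the UMIs of all late lung cells but 68.1% of the Id1, 63.8% of the Id3, 76.6% of the Smad6 and 78.7% of the Smad7 UMIs. Their share of Id2 was 25%. Every one of the 6 carried all 4 lung genes: Id1 between 310 and 1041 CPM (median 532), Id3 between 854 and 1319 CPM (median 1033), Smad6 between 248 and 1086 CPM (median 822) and Smad7 between 136 and 496 CPM (median 294). Id2 lay between 0 and 99.2 CPM in them. The other 2 deep late lung cells had 0 or 1 Cldn5 UMI and together held 1 UMI of Id3, 1 of Id2 and none of Id1, Smad6 or Smad7. Early lung had 1 cell over 10000 UMIs, with 52 UMIs of Cldn5, and it held 613 CPM of Id1, 438 CPM of Id3, 87.6 CPM of Smad6 and no Smad7.

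Within Cldn5 cells the lungs did not differ beyond counting error. Late over early lung, the log2 ratio was -0.29 (-1.57 to 0.997) for Id1, -0.14 (-0.92 to 0.65) for Id3 and 0.43 (-0.65 to 1.62) for Smad6. The late lung group holds 1 cell over 10000 UMIs (12887 UMIs), and without it the log2 ratios were -0.15 (-1.67 to 1.24) for Id1, -0.57 (-1.63 to 0.38) for Id3 and -0.53 (-2.29 to 0.93) for Smad6, so that a 2-fold difference lies within each of these intervals. Most deep cells hold UMIs of a second marker and are left out of these groups. When each cell was instead assigned to the marker with most UMIs, a grouping chosen after seeing the data, the 32 late lung and 35 early lung Cldn5 cells gave 0.36 (-0.30 to 1.16) for Id1, 0.12 (-0.36 to 0.65) for Id3, 0.93 (0.21 to 1.81) for Smad6 and 1.93 (0.52 to 4.46) for Smad7. In that grouping the Smad intervals lay above 0, and without cells over 10000 UMIs they included it, at 0.40 (-0.58 to 1.45) for Smad6 and 1.02 (-0.91 to 3.70) for Smad7. The endothelial list itself was higher over all late lung cells, at 7456 CPM, than over early lung cells, at 4404 CPM; its part in the ratios of the 4 lung genes was not tested.

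Primary tumor was set against early lesion to ask how the genes differ with stage in the mammary gland. Id2 was 1.38-fold higher in primary tumor, a log2 ratio of 0.46 (0.37 to 0.55) from 1608 against 2509 UMIs. The median over the 9811 genes tested was 0.33. Without cells over 10000 UMIs the log2 ratio of Id2 was 0.64 (0.52 to 0.76), against a median of 0.16. Across single cells, Id2 had a median of 675 CPM in primary tumor and 425 CPM in early lesion, with upper quartiles of 1463 and 942 CPM and many cells at 0 in both. Of the 5 genes, Id2 and Smad7 reached 20 UMIs over both libraries, and 1 of these 2, Smad7, was at least 2-fold higher, where 25.6% of all genes tested were higher and 7.12% lower. Smad7 had 16 UMIs in primary tumor and 12 in early lesion, a log2 ratio of 1.51 (0.35 to 2.73), but 14 of the 16 lay in cells over 10000 UMIs. Without such cells the counts were 2 and 11 and the log2 ratio -0.06 (-3.53 to 1.88), so no order held. Id1 with 1 against 7 UMIs, Id3 with 1 against 17 and Smad6 with 0 against 3 were too rare to rank by stage.

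Milk genes differed between these libraries, at 8.35% of UMIs in primary tumor and 15.8% in early lesion, so Id2 was also read as CPM of the UMIs of all other genes. Among tumor cells, Id2 stood at 1293 CPM (1168 to 1429) in the 145 cells with the lowest milk share, 908 CPM (828 to 994) in the 145 middle cells and 876 CPM (815 to 941) in the 144 highest. Among early lesion cells it stood at 620 CPM (572 to 670), 797 CPM (745 to 851) and 842 CPM (790 to 896) in the 440, 439 and 439 cells of the same order. The cells with the lowest milk share therefore held the most Id2 in primary tumor and the least in early lesion. Their intervals did not overlap those of the other groups of their own library, though median depth differed too, from 1569 to 1894 UMIs across the groups in primary tumor and from 1799 to 2986 UMIs in early lesion. Summed UMIs were also uneven in primary tumor, at 306245 in the lowest, 552817 in the middle and 966780 in the highest group, and the 18 tumor cells over 10000 UMIs held Id2 at 866 CPM, against 1072 CPM in the other 416. Without such cells the tumor groups stood at 1293 CPM (1168 to 1429), 908 CPM (799 to 1029) and 963 CPM (832 to 1109), and the early lesion groups at 623 CPM (575 to 675), 791 CPM (738 to 847) and 849 CPM (794 to 905), so the lowest group kept its place in both libraries.

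Id2 was also read by cell cycle genes. In primary tumor it stood at 884 CPM (827 to 944) in the 78 cells with at least 2 UMIs of 10 cell cycle genes and 1079 CPM (1001 to 1162) in the other 356. In early lesion it stood at 745 CPM (701 to 792) in 448 such cells and 769 CPM (730 to 810) in the other 870. Cycling-gene cells were the lower group in primary tumor, while the early lesion intervals overlapped. Without cells over 10000 UMIs the tumor groups stood at 1003 CPM (858 to 1166) and 1091 CPM (1009 to 1177), and these intervals overlapped too. The cells with cell cycle UMIs were also the deeper cells, with medians of 3222 against 1405 UMIs in primary tumor and 3268 against 1935 UMIs in early lesion.

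**Figure D4:**
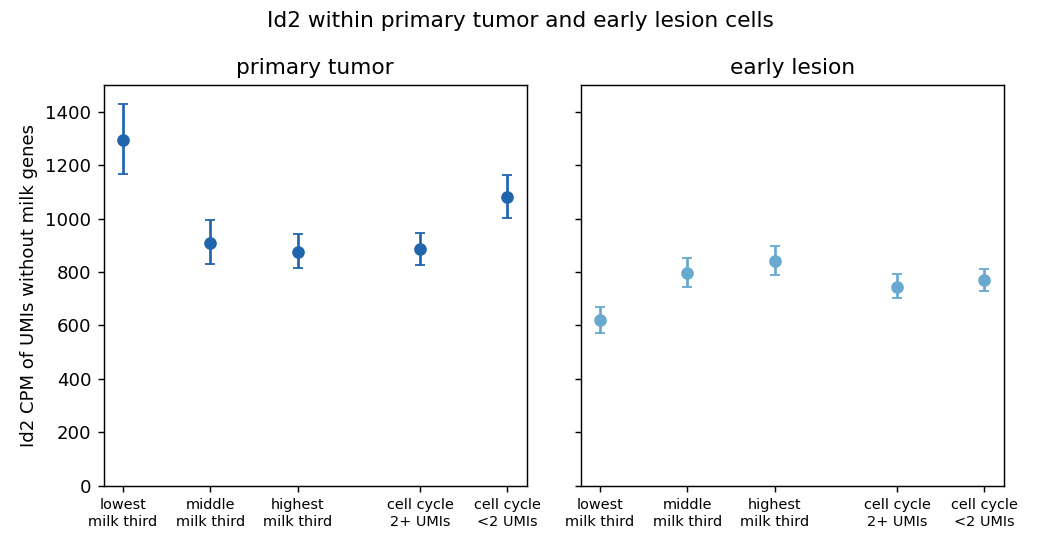
Id2 CPM of UMIs without milk genes in primary tumor (left) and early lesion (right), over cells with the lowest, middle and highest milk share and over cells with at least 2 or under 2 UMIs of 10 cell cycle genes; bars are exact 95% counting intervals. Id2 lies at 1293 CPM in the lowest milk group of primary tumor and 620 CPM in that of early lesion.

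The few UMIs of the lung genes in early lesion were unevenly spread. Of 17 Id3 UMIs, 15 lay in the 440 cells with the lowest milk share, as did 9 of 12 Smad7, 4 of 7 Id1 and all 3 Smad6 UMIs. In the 13 early lesion cells with a Cldn5 UMI there were 5 Id3 UMIs and 1 Id1 UMI, against 12 and 6 in the 1305 cells without one. No primary tumor cell held a Cldn5 UMI.

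Late lung was set against primary tumor, and early lung against early lesion, to compare the sites within a stage. All 5 genes were at least 2-fold apart between late lung and primary tumor, where 43.9% of 8740 genes were: 4 were higher in late lung (22.5% of genes) and Id2 was lower (21.4% of genes). The log2 ratio was 8.68 (6.75 to 14.57) for Id1 and 9.47 (7.56 to 15.36) for Id3, each against 1 tumor UMI. It was 4.05 (3.27 to 4.97) for Smad7 and -3.48 (-4.06 to -3.00) for Id2. Counting 3 UMIs for primary tumor, Smad6 was 208-fold higher in late lung, and the lower end of its exact log2 interval was 7.39. These sizes lean on deep cells. When cells over 10000 UMIs were left out, the same reckoning gave 38.3-fold for Smad6 and 51.1-fold for Id1, which then had 0 tumor UMIs. The log2 ratio was then 7.65 (5.71 to 13.55) for Id3 and -3.34 (-4.03 to -2.77) for Id2. Smad7 fell to 13 against 2 UMIs, under the minimum of 20. Between early lung and early lesion, all 4 genes with 20 UMIs were at least 2-fold apart, where 54.6% of 8776 genes were: 3 were higher in early lung (29.9% of genes) and Id2 was lower (24.7% of genes). Id1 had a log2 ratio of 6.38 (5.26 to 7.89), Id3 one of 6.66 (5.93 to 7.53), Smad6 one of 7.08 (5.55 to 9.64) and Id2 one of -4.32 (-5.89 to -3.31). Smad7 had a log2 ratio of 3.53 (1.91 to 4.95) from 7 and 12 UMIs. The sites thus differed in the same direction for each gene at both stages, and the comparisons by stage and by site share these libraries.

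Other genes of the pathway were read from lists by role, beside the median over all genes tested. Most measured receptors were higher in the lungs. In early lung, 6 of 6 measured receptors were at least 2-fold higher than in early lesion, where 29.9% of all genes were (median log2 ratio 4.10, against 0.18 over all genes). In late lung 5 of 7 were higher than in primary tumor, where 22.5% of all genes were (median 2.81, against 0.01). Eng, the co-receptor endoglin, stood at 592 CPM in late lung against no UMI in primary tumor, and at 447 CPM in early lung against 1.02 CPM in early lesion. Bmpr2, the type II BMP receptor, stood at 529 CPM in late lung against 24.6 CPM in primary tumor. Acvrl1, the type I receptor of endothelium, stood at 391 CPM in late lung against 8.22 CPM in primary tumor. By stage in the mammary gland, 5 of 7 were at least 2-fold higher in primary tumor than in early lesion (25.6% of all genes; median 1.10, against 0.33). Without cells over 10000 UMIs, 0 of 3 were (14.9% of all genes; median -0.55, against 0.16). Between the lungs, 1 of 5 receptors was at least 2-fold higher in late lung, where 12.6% of all genes were. It was Tgfbr2, with 25 against 5 UMIs and an interval that included 0 (log2 1.20, -0.11 to 3.05).

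Ligands did not share this pattern. Tgfb1 was higher in late lung than in primary tumor (log2 ratio 2.10, 1.34 to 2.86) and Tgfb3 lower (-2.41, -3.99 to -1.37). Of 4 ligands measured, 1 was at least 2-fold higher (22.5% of all genes) and 2 were lower (21.4% of all genes). Inhbb, a subunit of activin B, had no UMI in late lung against 135 in primary tumor. Inhbb was also higher in primary tumor than in early lesion (log2 2.74, 2.25 to 3.29), while Tgfb2 was lower (-1.15, -1.63 to -0.73). BMP ligands were not among the named genes of any comparison, since none passed the measured minimum with 50 CPM in a library. Of the signal Smads, 2 of 5 were at least 2-fold higher in late lung than in primary tumor (22.5% of all genes; median log2 ratio 0.52, against 0.01) and 3 of 4 in early lung than in early lesion (29.9% of all genes; median 1.47, against 0.18).

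Of the extracellular and intracellular inhibitors, 5 of 8 were at least 2-fold higher in late lung than in primary tumor and 1 was lower. Of all genes 22.5% were higher and 21.4% lower, and the median log2 ratio of the list was 1.67, against 0.01. In early lung 7 of 8 were higher than in early lesion and 1 was lower. There 29.9% of all genes were higher and 24.7% lower, and the median of the list was 3.80, against 0.18. With genes at 0 set to their bound these medians were 1.65 and 3.78. By stage, 4 of 6 were higher in primary tumor than in early lesion, where 25.6% of all genes were (median 1.85, against 0.33). Fstl1 and Bambi, 2 of 7, were lower in late lung than in early lung, where 4.96% of all genes were (median -0.20, against 0.05). When cells over 10000 UMIs were left out, 0 of 6 were at least 2-fold higher or lower between the lungs (median -0.23, against -0.03). Fst, the secreted activin antagonist follistatin, had 40 UMIs in late lung and 29 in early lung, against none in either mammary library. Crim1, a transmembrane protein that binds BMPs, stood at 197 CPM in late lung against 2.19 CPM in primary tumor. Tgif1, a co-repressor of Smads, went the other way, at 4.85 CPM in late lung against 54.8 CPM in primary tumor.

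Among other BMP targets, Tmem100, an endothelial target of Acvrl1 signaling, stood at 1335 CPM in late lung and 879 CPM in early lung, against 0.548 CPM in primary tumor and 1.53 CPM in early lesion. Hey1 and Hes1, which encode repressors also induced by Notch, did not follow Id1. Hey1 stood at 116 CPM in late lung and 34.4 CPM in early lung, against 212 CPM in primary tumor and 7.39 CPM in early lesion. It was thus higher in primary tumor than in early lesion (log2 4.82, 4.30 to 5.44), where Id1 was near 0 in both. Hes1 stood at 248 CPM in late lung and 63.8 CPM in early lung, against 64.1 CPM in primary tumor and 142 CPM in early lesion. Between the lungs, 3 of 4 measured genes of this list were at least 2-fold higher in late lung, where 12.6% of all genes were. The median log2 ratio was 1.49, against 0.05 over all genes. Without cells over 10000 UMIs, 2 of 3 were, against 6.02% of all genes (median 1.20, against -0.03). TGF-beta targets ran both ways between primary tumor and early lesion. Of 4 measured, 2 were at least 2-fold higher in primary tumor (25.6% of all genes) and 2 lower (7.12% of all genes). The median log2 ratio was 1.05, against 0.33 over all genes. The 2 higher were Pmepa1, an inhibitor of receptor Smads, and Ltbp2, a matrix protein (log2 4.56, 4.11 to 5.08, and 5.66, 4.83 to 6.81). Late over early lung, 2 of 3 were lower (4.96% of all genes), and 0 of 3 when cells over 10000 UMIs were left out. Cells over 10000 UMIs held most of the Pmepa1 UMIs, and without them its log2 ratio was 2.76 (2.16 to 3.39).

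E proteins are the partners that Id proteins hold. Tcf4, an E protein, stood at 265 CPM in late lung and 191 CPM in early lung, against 47.6 CPM in primary tumor and 8.15 CPM in early lesion, the same split as Id1 and Id3. Tcf12, another E protein, was higher in early lung than in early lesion (log2 2.04, 1.01 to 2.87). Between the lungs, Tcf12 had 10 UMIs in late lung and 13 in early lung (log2 -1.38, -2.74 to -0.09). Bhlhe40, a helix-loop-helix repressor, was lower in late lung than in primary tumor (log2 -2.04, -3.47 to -1.05), the same direction as Id2.

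The patterns of the genes were compared over 10 sums of cells: the Cldn5, Ager, Cox4i2 and remaining cells of each lung, all primary tumor cells and all early lesion cells. These points share libraries, depth and free RNA, so r is a description. Id1 and Id3 ran closest among the Id genes (r = 0.93), Smad6 and Smad7 with each other (r = 0.94), and Id2 against all 4, from -0.19 with Smad7 to -0.55 with Id3. The 5 genes most like Id1 were Adgrf5 (r = 0.99), Ramp2, Bmpr2, Ly6a and Rras (0.96). Those most like Smad6 were Cdh5, Scn7a, Thbd, Cd93 and Ace (r from 0.988 to 0.995), of which Cdh5 encodes the cadherin of endothelial junctions and Thbd thrombomodulin. Those most like Id3 were Ctla2a (0.98), Ly6a, Hpgd, Slc9a3r2 and Ramp2 (0.95), so that Ly6a and Ramp2 were shared with Id1. Those most like Id2 were Rplp0 (0.93), Rps13, Cldn3, Gm8730 and Rpl12 (0.92), that is ribosomal protein genes, a gene model and the epithelial claudin Cldn3.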

How the data were processed

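The authors deposited UMI counts per gene and barcode for 4 droplet libraries (10x 3′ chemistry, sequenced on a NextSeq, per the labels' protocols; the submitters' processing notes name the build mm10). Which aligner was used is not given in the sources used here. All listed barcodes were deposited, and cells were taken as barcodes with at least 500 UMIs, 250 genes and at most 20% mitochondrial UMIs; no doublet caller was run. Counts were summed over cells and given as CPM of cell UMIs. Log2 ratios used 0.5 added counts, with exact conditional 95% intervals. A gene was measured with 20 UMIs over both libraries and counted as apart at 2-fold; a sum of 0 was set to 3 UMIs as a bound, and no ratio was given where both sums were at most 3. With 1 library per group no test was made. Likeness was Pearson's r of log2(CPM + 50). Promoters and motifs came from RefSeq tables. Python 3.11.15, numpy 2.4.6, scipy 1.17.1 and pandas 2.3.3 were used, and the ratios were tested on simulated data. The simulated counts were drawn as Poisson sums per gene, the same model as the intervals. They hold no clustering of UMIs in single cells, so they do not show how the intervals fare with it. The genes named are all 5 members and, per list and comparison, up to 4 genes at 50 CPM or more whose interval lay farthest from 0, with the 5 genes most like each member that had 100 UMIs. Members and lists were chosen with earlier results of these data known.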

Additional observations from a re-analysis of the deposited data

Results flagged for a closer look

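Some genes ran in opposite directions under the same contrast in 2 groups; with 1 library per group these differences were not tested. The log2 ratio of Id2 in Cldn5 over Ager cells was -0.44 in late lung and 3.04 in early lung, on 2 and 13 UMIs in late lung and 4 and 1 in early lung.

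Hes1 had a log2 ratio of 1.91 for late lung over early lung and -1.14 for primary tumor over early lesion. By site, the ratio of Hes1 was 1.95 for late lung over primary tumor and -1.10 for early lung over early lesion. Ltbp2 had a log2 ratio of -1.11 for late lung over early lung, on 14 and 15 UMIs, and 5.66 for primary tumor over early lesion. By site, the ratio of Ltbp2 was -1.95 for late lung over primary tumor and 4.83 for early lung over early lesion.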

How the results depend on the processing

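No paired analysis was possible because each group has 1 library and all carry the same replicate number. Intervals cover counting error only, PCR and mouse-to-mouse spread are not covered, and genes under 20 UMIs could not be ranked. Of 204 alternative values for the sums, counts and likeness, 174 stayed within the interval or within 1.5 times, 28 moved and 2 turned round; of 359 for single genes, 300 stayed, 55 moved and 4 turned round. The cause of each change was not tested.

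Late over early lung, the number of genes 2-fold apart was 1 without cells over 10000 UMIs, 0 by the mean over cells and 2 with 5 added counts. There the Id sum had log2 ratios of 0.077 without such cells and -0.019 by the mean over cells, and the Smad sum 0.30 and 0.14; Smad7 had -0.14 by the mean over cells. Primary tumor over early lesion, the number was 0 under both settings, the Smad sum -0.39 and -0.92, and Smad7 -0.056 and -0.44. The Id sum there was 0.63 without such cells, 0.21 when centred on the median gene and 0.33 without milk genes. Late lung over primary tumor, the Id sum was -0.63 without such cells and -0.50 by the mean over cells. Early lung over early lesion, 2 genes were apart with a minimum of 1000 UMIs, and the Id sum was -0.41 when centred.

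Cldn5 over Ager cells in late lung, the Id sum was 0.61 when cells with other markers were kept and 3.03 with at least 2 UMIs of the marker. The Smad sum was 0.75 when they were kept, 2.76 without cells over 10000 UMIs and 2.47 by the mean over cells. In early lung, keeping them gave 1.41 for the Id sum and 2.35 for the Smad sum. Cldn5 over Cox4i2 cells in late lung, the Smad sum was 0.0059 when they were kept and had bounds of 0.52 without cells over 10000 UMIs and 0.72 with a minimum of 1000 UMIs. In early lung the Id sum was 0.054 when they were kept and 1.31 by the marker with most UMIs, a grouping added after seeing the data, and Id3 was -0.19 when they were kept.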

Other observations

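In early lesion, barcodes with 1 to 50 UMIs held the lung genes at levels above those in the cells. Id1 stood at 2.34 CPM there and 1.78 CPM in cells, Id3 at 7.60 and 4.33 CPM, Smad6 at 4.09 and 0.764 CPM, and Smad7 at 6.43 and 3.06 CPM, each on 17 UMIs or fewer in either set. In early lung the same held for Id2, with 115 CPM in those barcodes (27 UMIs) and 29.5 CPM in cells (6 UMIs). Late lung had 69.0 CPM of Id2 in those barcodes and 77.7 CPM in cells.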
